A study of Mus musculus with 2 samples.

Results

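Duxf3 is the mouse Dux gene of the GENCODE vM21 annotation, and it was followed here as 1 gene among 21938 annotated coding genes. It was chosen by its name and by the peaks of a deposited H1t peak list at its start, over its body and within 200 kb. The other 3 genes with a Dux symbol, Duxbl1, Duxbl2 and Duxbl3, served as the contrast. Because the choice used the peak list, all scores, widths and positions of its peaks are given as a description with no test. H1t is a linker histone variant known mainly from male germ cells, and its position on chromatin was measured by chromatin immunoprecipitation and sequencing (ChIP-seq). The cells were spermatogenic cells from testes of ICR mice aged 6 weeks, an outbred stock, immunoprecipitated with a rabbit polyclonal antibody against H1t made by the submitters. An input library of the same cells completes the 2 libraries of the series and was not analysed here. The number of mice pooled is not stated in the labels. The cells are a mixture of germ cell stages, so more H1t per cell and more cells carrying it cannot be told apart. Expression was not measured, and the cell type label was not checked against markers.

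Dux genes encode transcription factors with a pair of DNA-binding homeodomains and an activating tail. In the mouse, Dux switches on a set of genes of the cleavage-stage embryo, and its human counterpart is DUX4. Both lie in arrays of repeated copies that are normally kept silent in somatic cells. The Duxbl genes are a separate, more distant branch of the same family.

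The H1t list held 1 peak at Duxf3, and it was among the strongest of the whole list. It ran over 3625 bp at chr10:58230632-58234256 (mm10) and had a score of 1014.81. Scores were assigned by the authors and serve here only to describe and rank peaks of this 1 list. By score the peak was at rank 26 of 76434 peaks on chromosomes 1 to 19, X and Y, and by width at rank 103. In this library 0.034% of peaks had a score as high, 0.135% were as wide, and 0.017% (13 peaks) were both. Of the 26 peaks with a score as high, that of Duxf3 included, 10 overlapped a coding gene. The median peak had a score of 73.99. There is 1 H1t library and therefore no replicate, and read depth is not known, so no error or interval can be given for any value below.

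Duxf3 lies on the minus strand at chr10:58229979-58232675 (2697 bp, ENSMUSG00000075046). Its start base, the upper end of the gene, was inside the peak, which reached 1581 bp upstream of it. A start base inside a peak was found for 15% of coding genes, and a peak overlapping 1000 bp on either side of the start for 24.7%. A start-site score of 1000 or more was found for 6 coding genes (0.0273%), Duxf3 being the lowest of them. The peak covered 2044 bp of the gene, or 75.8%. Among coding genes no longer than Duxf3, 8.04% had at least 50% of their body covered. Over all coding genes 0.912% did, and 0.378% were covered to the extent of Duxf3. The annotation gives Duxf3 a single-exon transcript of 2025 bases, coding in all but the stop codon, and a spliced transcript of 1486 bases. The peak began 19 bp past the stop codon shared by both and covered the whole single-exon transcript. The remaining 653 bp of the gene, outside the peak, belong to the 3′ UTR of the spliced transcript.

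The Duxf3 sequence recurs in 4 neighbouring genes without a Dux symbol. A search of all annotated transcripts with the Duxf3 coding sequence (blastn, e-value of at most 1e-05) found matches only in these 4 genes and in Duxbl1, Duxbl2 and Duxbl3. AW822073, a coding gene at chr10:58222972-58224930, matched over 1959 bases with 98.1% identity. Gm10807, an unprocessed pseudogene at chr10:58227857-58228651, matched over 795 bases with 98.7%. Gm19459, an unprocessed pseudogene at chr10:58239608-58240661, had its best match over 610 bases with 90.0%. Gm4981, a coding gene at chr10:58234848-58236701, had its best match over 1111 bases with 81.5%. All 4 lie on the minus strand with Duxf3. In the Duxbl genes the match shrank to 114 bases with 71.1% identity.

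The last 120 bases of the coding sequence show how close the copies are. They encode the tail of the protein, the part known for transcriptional activation in this family. All are written 5′ to 3′ on the minus strand of GRCm38, from the GENCODE transcripts, with capitals where a base differs from Duxf3. For the 2 pseudogenes they are the last 120 annotated bases. The windows are chr10:58230651-58230770 for Duxf3, chr10:58222972-58223091 for AW822073, chr10:58227857-58227976 for Gm10807, chr10:58239608-58239727 for Gm19459 and chr10:58235515-58235634 for Gm4981.
Duxf3: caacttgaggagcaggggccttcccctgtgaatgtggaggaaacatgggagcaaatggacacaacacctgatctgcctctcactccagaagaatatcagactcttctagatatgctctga
AW822073: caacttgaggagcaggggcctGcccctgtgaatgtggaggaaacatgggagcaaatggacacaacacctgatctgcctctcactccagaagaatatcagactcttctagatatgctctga
Gm10807: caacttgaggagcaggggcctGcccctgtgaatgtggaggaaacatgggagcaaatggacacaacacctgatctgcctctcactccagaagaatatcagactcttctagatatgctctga
Gm19459: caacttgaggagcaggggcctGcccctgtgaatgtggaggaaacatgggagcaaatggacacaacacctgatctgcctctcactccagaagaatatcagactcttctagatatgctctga
Gm4981: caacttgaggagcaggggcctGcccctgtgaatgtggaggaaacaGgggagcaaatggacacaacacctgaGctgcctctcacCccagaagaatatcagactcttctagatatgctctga
AW822073, Gm10807 and Gm19459 each had 1 difference from Duxf3 in this window, and Gm4981 had 4. At the coding end the copies under a peak and the copies without one therefore look nearly alike, and most of the divergence of Gm19459 and Gm4981 lies farther upstream.

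The front of the coding sequence was compared for the pair of copies under the strongest peaks. AW822073 is annotated from an ATG that lies 66 bases into the coding sequence of Duxf3. From there both encode the first homeodomain region. The first 150 bases from that ATG are at chr10:58232460-58232609 in Duxf3 and chr10:58224781-58224930 in AW822073, again with capitals where AW822073 differs.
Duxf3: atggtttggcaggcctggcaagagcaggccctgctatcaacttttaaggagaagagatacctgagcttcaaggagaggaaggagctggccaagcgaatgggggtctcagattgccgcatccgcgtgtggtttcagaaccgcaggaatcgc
AW822073: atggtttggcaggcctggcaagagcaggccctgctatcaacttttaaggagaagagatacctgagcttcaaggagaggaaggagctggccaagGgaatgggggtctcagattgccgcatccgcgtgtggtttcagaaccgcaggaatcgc
This stretch held 1 difference, and the full 1959 bases held 37. The longest run of identical bases between Duxf3 and its neighbours was 251 with AW822073, 346 with Gm10807, 98 with Gm19459 and 50 with Gm4981. It was 14 with each Duxbl gene. Of the 1817 distinct 50-base words of the Duxf3 coding sequence, 44.5% also occurred in AW822073, 28.9% in Gm10807, 5.67% in Gm19459, 0.055% in Gm4981 and 0% in the Duxbl genes. Duxf3 also repeats within itself, since bases 587 to 1389 of its coding sequence matched bases 1136 to 1938 with 90.2% identity, an offset of 549 bases.

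Of the 4 peaks within 200 kb, 3 fell on Duxf3 and the copies nearest to it in sequence, and the fourth on none of the 5 loci. AW822073 lay wholly inside a peak of 3587 bp with a score of 1119.86, at chr10:58222853-58226439 (rank 20 by score, 108 by width). Gm10807, a fragment with the end of the coding sequence and no front, lay wholly inside a peak of 1241 bp with a score of 172.84, at chr10:58227483-58228723. For comparison, 6.55% of 2642 unprocessed pseudogenes were overlapped by a peak, and 9.04% of all peaks scored as high. Gm4981 and Gm19459 were not overlapped by any peak. The peak of Duxf3 ended 592 bp from Gm4981, whose start was 2445 bp away, and the nearest peak to Gm19459 was 5352 bp away.

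So the 3 loci with at least 98.1% identity (Duxf3, AW822073 and Gm10807) were covered, and the 2 with best matches of 90.0% and 81.5% were not. These are 5 loci of 1 array in 1 library, and the division was seen after their values. Other properties divided them alike. Transcript GC content was 57.9% in Duxf3, 57.7% in AW822073 and 56.2% in Gm10807, against 52.3% in Gm4981 and 52.6% in Gm19459. The share of 50-base words found in any other gene was 55.3%, 52.1% and 86.4% in the covered loci, against 0.166% and 19.5% in the others. Reads from identical copies cannot be placed with certainty, and the labels do not say how such reads were treated. The part of each property in the scores was not tested.

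**Figure D1:**
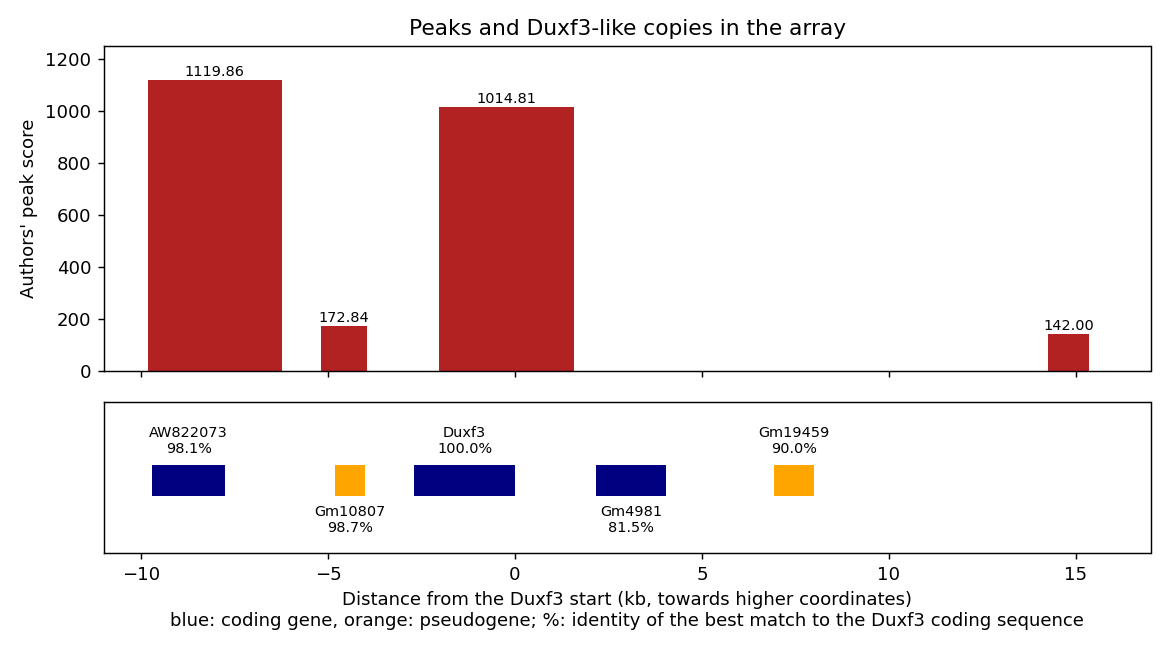
Peaks and Duxf3-like copies in and beside the array, by distance from the Duxf3 start in kb towards higher coordinates. Upper panel, the authors' score (height) and extent (width) of the 4 peaks; lower panel, the 5 loci with the identity of their best match to the Duxf3 coding sequence, coding genes in blue and pseudogenes in orange. Peaks stand over AW822073, Gm10807 and Duxf3, and the bars of Gm4981 and Gm19459 have none above them.

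The peaks of Duxf3 and AW822073 took nearly the same place on their copies. Their widths were 3625 and 3587 bp. The stop codons of the genes are 7679 bp apart, and the peaks were shifted by 7779 bp at the lower end and by 7817 bp at the upper end. Past the stop codon the peak of Duxf3 extended by 19 bp and that of AW822073 by 119 bp. On the other side they reached 1581 bp upstream of the Duxf3 coding start and 1443 bp upstream of the matching position in AW822073. Each peak therefore spanned a whole coding sequence and over 1 kb upstream of it, and stopped close to the coding end. The Gm10807 peak reached 374 bp beyond the locus on the side of the coding end and 72 bp on the other. Gm4981, whose stop codon is 4864 bp from that of Duxf3, had no peak over any part of this span.

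**Figure D2:**
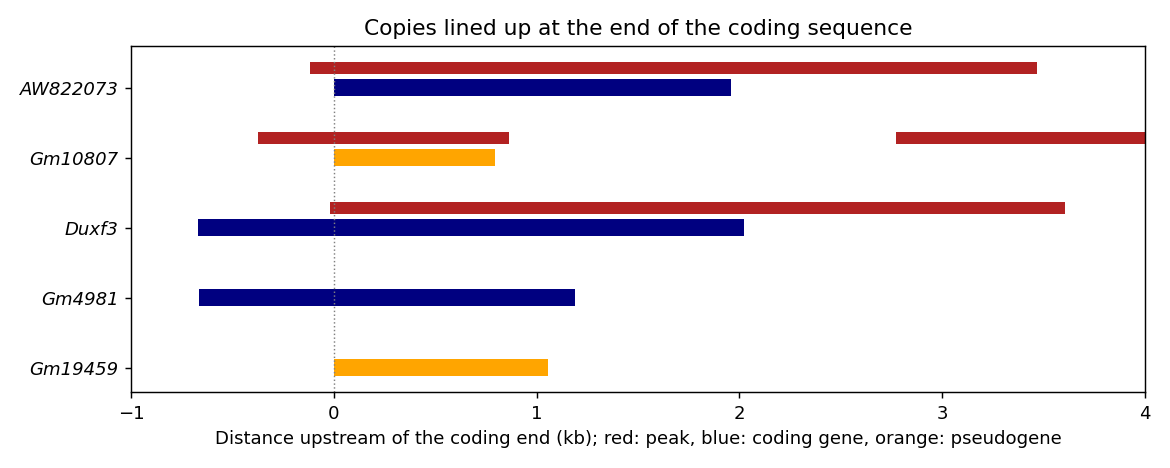
The 5 copies lined up at the end of the coding sequence, with kb upstream of it on the horizontal axis; red bars are peaks, blue bars coding genes and orange bars pseudogenes. The peaks of AW822073 and Duxf3 both begin near 0 and run past the front of the gene, Gm4981 and Gm19459 have no red bar, and the second red bar in the Gm10807 row is the beginning of the Duxf3 peak, cut off at the edge of the plot.

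The upstream sequence of Duxf3 was inside the peak as well. RefSeq (GRCm38.p6) places the start of Duxf3 at 58233089, upstream of the GENCODE start. Its promoter window, 250 bases before to 50 after that start, lay wholly inside the peak, as did 5.68% of 32851 such windows. The window of Gm4981, the neighbour without a peak, was 2355 bp from the nearest peak. Both upstream sequences are shown because they set the covered copy beside the bare one. They are from RefSeq, 5′ to 3′ on the minus strand, at chr10:58233090-58233339 for Duxf3 and chr10:58236702-58236910 for Gm4981, where the sequence stops at the GENCODE start. Capitals mark a match to one of 3 promoter motifs searched on both strands.
Duxf3: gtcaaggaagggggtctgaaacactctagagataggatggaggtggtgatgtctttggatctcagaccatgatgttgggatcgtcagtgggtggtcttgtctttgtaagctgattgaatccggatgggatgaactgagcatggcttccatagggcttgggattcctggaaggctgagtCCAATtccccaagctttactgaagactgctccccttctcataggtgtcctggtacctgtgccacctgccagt
Gm4981: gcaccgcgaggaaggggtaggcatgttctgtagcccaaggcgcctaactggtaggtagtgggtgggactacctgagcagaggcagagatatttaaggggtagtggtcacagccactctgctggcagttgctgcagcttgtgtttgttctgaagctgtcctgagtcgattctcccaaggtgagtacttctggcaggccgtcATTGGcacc
The motifs were the TATA box core (TATAAA), the CCAAT box (CCAAT) and the Sp1-type GC box (GGGCGG). Both windows held CCAAT, as did 33.8% of all windows of 250 bases, in Gm4981 on the opposite strand. Neither held TATAAA (12.4% of windows) or GGGCGG (32.7%), which says only that these letters are not in these windows. GC content over the 250 bases was 51.2% in Duxf3 and 57.2% in Gm4981, against a median of 52.4%. CpG dinucleotides numbered 2 in Duxf3 and 5 in Gm4981, against a median of 6. So upstream of the start the order of GC content was the reverse of that in the transcripts.

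The wider surroundings of Duxf3 carried few peaks. Within 200 kb of the gene there were 4 peaks, all in a run of 25183 bp that began at AW822073. The fourth had a score of 142.00 and a width of 1114 bp, at chr10:58246922-58248035. It overlapped no GENCODE gene and lay 7462 bp before the start of Gcc2, a gene for a Golgi protein, inside the RefSeq non-coding RNA gene Gm9919. The 4 peaks covered 38% of the run, and 0.0314% of autosomal stretches of that length were covered as much. The run was drawn from the first peak edge to the last, which raises its covered share. The stretches were laid end to end without regard to peaks, so the comparison is not like for like. Over the full 402697 bp they covered 2.38%. Autosomal stretches of that length had a median of 11 peaks, and 10.5% had 4 or fewer. Of coding genes, 6.98% had 4 or fewer peaks within 200 kb.

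Both sides of the run were free of peaks. Below it no peak was listed over 362575 bp, at chr10:57860278-58222852, and 0.159% of autosomal gaps between neighbouring peaks were as long. No GENCODE gene lies in that stretch either: the annotation is empty for 411141 bp between Smpdl3a and AW822073. Whether unsequenced bases lie there was not examined, since no genome sequence was used here. Above it no peak was listed over 184954 bp (1.98% of gaps were as long), which contains Gcc2 and Lims1, a focal adhesion gene, with 0 peaks in either. The nearest peak outside the limit of 200 kb lay just 315 bp beyond it, with a score of 73.43. The peak nearest to the limit on the inside was the one at AW822073 on the lower side and the one of score 142.00 on the upper side.

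**Figure D3:**
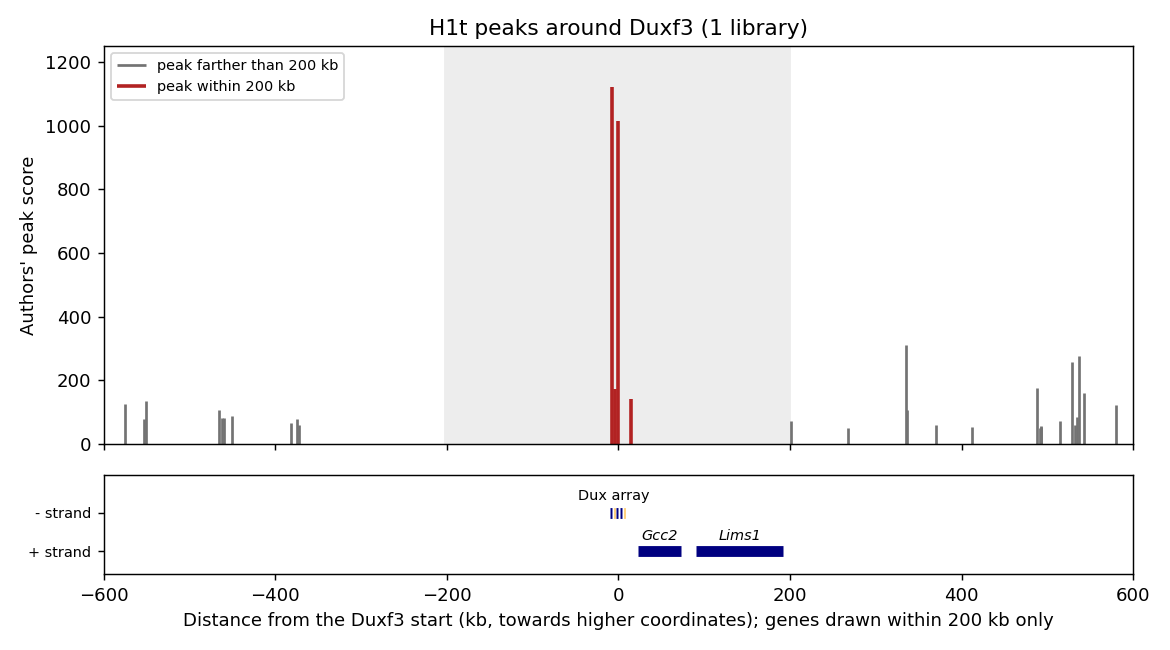
H1t peaks around Duxf3 by distance from its start in kb, with the authors' score on the vertical axis and the genes within 200 kb below by strand. The 4 peaks within 200 kb (red, shaded zone) sit together at or near the Dux array, and the other peaks drawn (grey) have scores of at most 311.84.

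The other Dux-named genes had no peak. Duxbl1 (chr14:25978577-25990088), Duxbl2 (chr14:26118349-26129763) and Duxbl3 (chr14:26257962-26269436) had 0 peaks at the start, over the body and within 10 kb. A coding gene without a peak within 10 kb is common (31.6%). The nearest peak was 105605 bp from Duxbl1, 198912 bp from Duxbl2 and 59239 bp from Duxbl3. Within 200 kb there were 2, 1 and 3 peaks, against 4 for Duxf3. All 3 genes lie in 1 stretch of 455702 bp without a peak, chr14:25872973-26328674, and 0.0483% of autosomal gaps were as long. It holds 12 coding genes, among them the homeobox genes Cphx1, Cphx2 and Cphx3, named here after the stretch was seen. All 12 shared at least 50% of their 50-base words with another gene.

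The Duxbl genes are themselves near-identical copies. Their starts are 139772 and 139613 bp apart. The longest identical run between their longest transcripts was 2149 bases for Duxbl1 and Duxbl2 and 2312 for Duxbl2 and Duxbl3. Duxbl1 shared 97.2% of its 50-base words with other genes, Duxbl2 100% and Duxbl3 99%, against 55.3% in Duxf3. Their transcript GC content was 47.6%, 47.4% and 47.3%, below the 57.9% of Duxf3, which exceeded that of 90.7% of coding genes. Copied sequence was present on both sides of the contrast but not to the same extent. The longest identical run between Duxf3 and a neighbour was 346 bases. Scores were high in the Duxf3 array, and no peak was listed in the Duxbl array. Reads from identical copies cannot be placed with certainty, a limit that holds for the high scores and for the missing peaks alike. Neither can therefore be read as the amount of H1t at any given copy, and a missing peak need not mean that H1t was absent. With 1 library the contrast has no test, and the part of GC content and of shared sequence in it was not tested.

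GC content and shared sequence were then counted over all coding genes, beside the values of Duxf3. Of coding genes with 57 to 59% GC in their longest transcript, 35.7% had a start-site peak, against 22.2% of those with 47 to 48%. Only 2 of 1320 genes in the upper class (0.152%) had a score of 500 or more, and these were Duxf3 and AW822073. Among coding genes, 8.94% shared at least 50% of their 50-base words with another gene, as Duxf3 and the Duxbl genes did. Of these, 13.1% had a start-site peak, against 25.9% of the rest. Scores of 500 or more were found in 0.255% (5 of 1961) of the first and 0.02% (4 of 19970) of the second. The 5 include Duxf3 (55.3% of words shared) and AW822073 (52.1%). Since Duxf3 was chosen with its score known, the first share is not a background independent of it.

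Duxf3 was at rank 6 of all coding genes by start-site score. Above it were Gm21738 (3100), Fcgr3, an Fc receptor gene (1397.55), Gm10801 (1155.36), Gm10800 (1154.48) and AW822073 (1119.86). Below it a wide step separated it from Vmn1r48, a vomeronasal receptor gene (594.61), Gm45844 (541.75), Gm3739 (512.15), Gm21887 (494.35) and Gm17267 (480.97). The 5428 coding genes with a start-site peak had a median score of 71.53, and 10% of them had more than 136.02.
Of these 10 genes AW822073 was the nearest to Duxf3 in score, and also in peak width and transcript GC content. In covered share Gm21887 (80%) was nearer to Duxf3 than AW822073 (100%). The other 4 genes above it had transcript GC contents from 34.3% (Gm10801) to 49.2% (Fcgr3), and among the 5 below only Gm21887 (69.7%) exceeded Duxf3. The peak widths of Gm21738 (4484 bp) and Fcgr3 (3722 bp) were greater, and those of Gm10801 (1174 bp) and Gm10800 (1483 bp) smaller. The peak of Fcgr3 covered 10.9% of that gene, and the peak of Vmn1r48 lay at its start and covered 0% of its body.

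**Figure D4:**
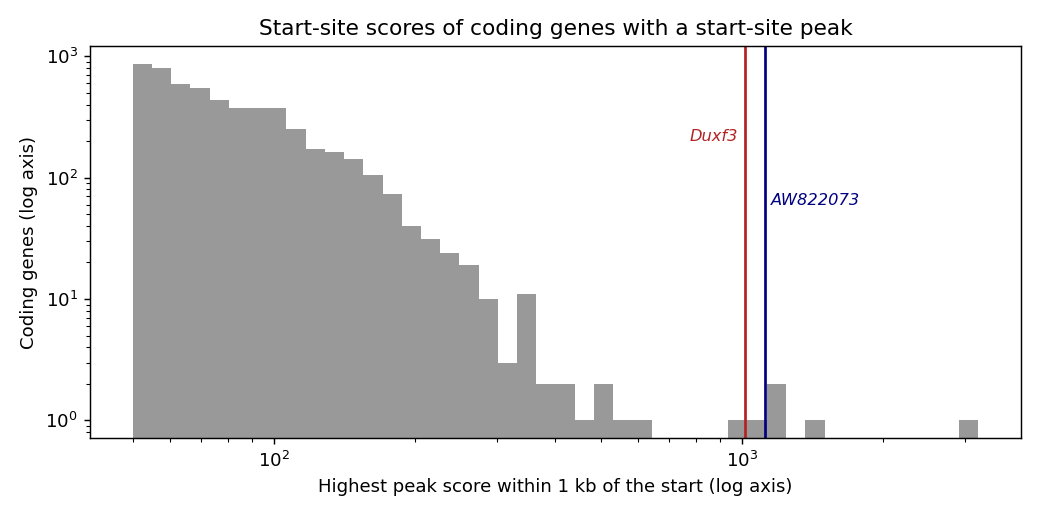
Highest peak score within 1 kb of the start for the 5428 coding genes with a start-site peak, both axes logarithmic. Duxf3 (red line, 1014.81) and AW822073 (blue line, 1119.86) stand far to the right of the main body of genes.

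**Figure D5:**
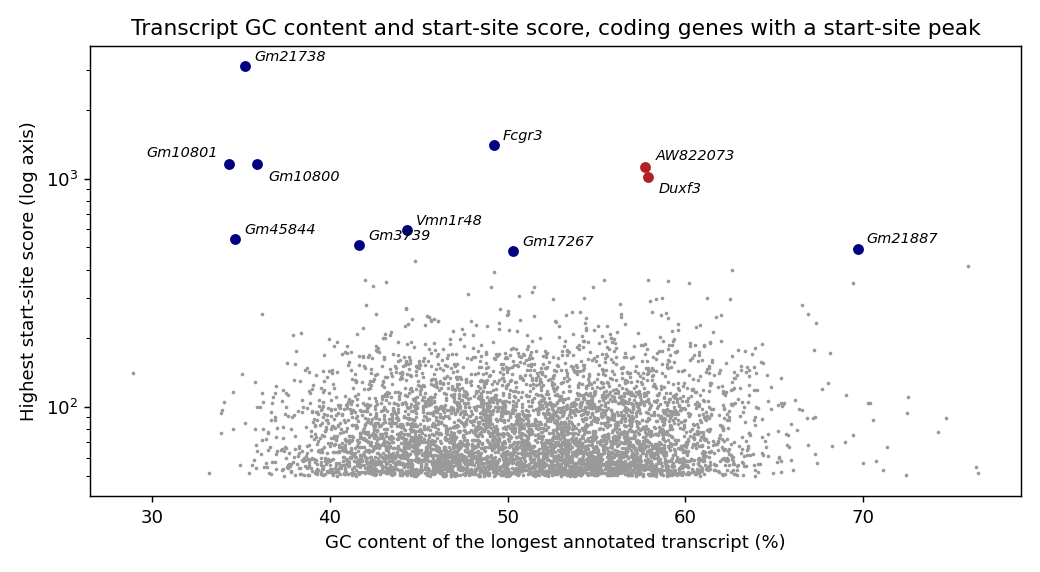
GC content of the longest annotated transcript (horizontal, percent) and highest start-site score (vertical, log axis) of coding genes with a start-site peak. Duxf3 and AW822073 (red) lie at 57.9% and 57.7%, while 4 of the 9 other named genes (blue) lie below 40%.

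None of the listed genes linked to Dux in other work came near the start-site score of Duxf3, which was chosen with that score known. Only 6 coding genes (0.0273%) scored 1000 or more, so short lists would rarely hold one. Of 22 genes known to activate or silence Dux, 9 (40.9%) had a start-site peak, against 24.7% of all coding genes. A peak within 10 kb was found for 15 (68.2%), against 68.4%. High scores within the list belonged to Ehmt2, a histone H3 methyltransferase (103.02), and Kdm1a, a histone demethylase (97.68). Dppa2 and Dppa4, which activate Dux, had 0 peaks within 10 kb, while Nelfa, also an activator, had 1 there, with a start-site score of 50.9. Of 2 genes that act in silencing, Smchd1 had 4 peaks within 10 kb and Trim28 had 0, and neither had a peak at its start. These 5 were singled out after their values were seen. The median start-site score was 0 for this list, as it was for the other lists below and for all coding genes.

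The genes that Dux switches on in the early embryo had none at their starts. Of 38 listed genes 36 were found in the annotation, and 0 of them had a start-site peak. The share was 24.7% over all coding genes and 13.1% over those with at least 50% of their 50-base words in another gene. AF067061, Arg2 and B020004J07Rik are examples by alphabetical order. The Zscan4 and Usp17l genes are among the members, and genes of such families are not separate observations. A peak within 10 kb was found for 14 (38.9%), against 68.4% of coding genes. Their median transcript GC content was 45.9%, and a median of 46.2% of their 50-base words occurred in another gene, against 48.7% and 0.1% for coding genes in general. The part of these in the count was not tested.

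A list of germ line and early embryo homeobox genes of the paired (PRD) class, to which Dux belongs, was counted last. It is a part of that class. Of 32 listed, 30 were found and 6 (20%) had a start-site peak, against 24.7% of coding genes. A peak within 10 kb was found for 12 (40%), against 68.4%. The highest score was that of Gsc, a gene of the embryonic organizer (97.02).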

How the data were processed

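Spermatogenic cells were profiled by ChIP-seq with 1 H1t library and 1 input library, the latter not analysed here. The submitters' processing notes name the aligner Bowtie 1.1.2 and the build mm10. No label or header names the peak caller, its settings or the use of the input, although the peak names look like those of MACS, and the handling of reads that match several places is also not stated. The deposited list gives 76546 peaks with a score each, from 50 to 3100, and 76434 on chromosomes 1 to 19, X and Y were used. Positions count from 1. Genes were those of GENCODE vM21 (GRCm38), and a start-site peak overlapped 1000 bp on either side of the gene's 5′ end. Backgrounds were counted over coding genes, peaks, or adjoining autosomal stretches between the first and last gene. The covered share, GC content and 50-base words (both strands) used the longest transcript of each gene where a sequence was needed. Copies were sought with BLAST 2.17.0. Named genes were Duxf3, genes with a Dux symbol, all GENCODE genes within 200 kb, the 5 coding genes above and below Duxf3 in score, and the 3 highest of each list, some of which are not reported here; the snRNA gene Gm23058, with 0 peaks, completes those within 200 kb. The members and lists were chosen with earlier results of these data known. The overlap and word counts were tested on simulated data. Python 3.11.15, numpy 2.4.6, pandas 2.3.3 and matplotlib 3.10.9 were used.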

Additional observations from a re-analysis of the deposited data

How the results depend on the processing

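The start-site score of Duxf3, its 1 peak there, its covered share and the absence of peaks at the other Dux-named genes did not change. The alternatives, as far as run for each, were windows of 500 and 2000 bp, peak midpoints, peaks at or above the median or upper-quartile score, and exons only. They could hardly have changed these values. The peak is 3625 bp wide over the start, with a score of 1014.81 far above both score limits. The nearest peak to any Duxbl gene was 59239 bp away. The agreement is therefore no measure of robustness. The rank of Duxf3 was 6 with windows of 500 and 2000 bp, 5 with midpoints and 11 among genes of all types. The non-coding genes then above it were lincRNA, rRNA and miRNA genes, with a score of 3100 at lincRNA and rRNA genes of chromosome 17. With 500 kb on either side there were 21 peaks, a covered share of 2.34% and a median spacing of peak midpoints of 8527 bp, against 4341 bp within 200 kb. With 100 kb the covered share was 4.72%, since the same 4 peaks fall in a shorter stretch. The 3 lists together had 15 members with a start-site peak, 9 at or above the median score and 0 at or above the upper quartile; these alternatives for the lists were chosen after seeing the data. No paired analysis was possible because each group has 1 library. Read depth and the input were not analysed here, so no peak, weak or strong, can be weighed against background. This holds for the peak of Duxf3 as well.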
